A study of Mus musculus with 2 samples.

Results

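Described here are 10 genes of the bone morphogenetic protein (BMP) pathway in skin cells of newborn mice: the ligand genes Bmp2, Bmp4 and Bmp7, the receptor gene Bmpr1a, the response genes Id1, Id2, Id3 and Id4, and the antagonist genes Fst (follistatin) and Grem1 (gremlin 1). They were taken by symbol, and these 10 symbols matched 10 of the 32285 genes in the deposited matrices. The values are unique molecular identifiers (UMIs), which count single RNA molecules read at their 3′ end, in barcodes with at least 1000 UMIs, at least 500 detected genes and under 15% mitochondrial UMIs. That rule kept 5178 of 9072 control barcodes and 5258 of 9114 induced barcodes, and 4827 and 4910 of them stayed after likely doublets had been removed.

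The study compared 2 single-cell libraries of dorsal skin taken on postnatal day 3. The control library has the genotype Wildtype, the other library has the genotype miR-200b induced, and both carry the treatment Dox (doxycycline, a drug commonly used to switch on inducible transgenes). The labels give neither the induction construct, nor the promoter that drives it, nor the number of animals, so 1 library stands for each group and no test between the groups was possible. Epidermis, freed with dispase and trypsin, and dermis, freed with collagenase and trypsin, were dissociated apart and mixed in parts of 30 to 70, so the shares of classes reflect that mixture as well as the tissue.

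BMPs are secreted proteins that bind pairs of type I and type II receptor kinases at the cell surface. Bmpr1a is a type I receptor, and the activated complex phosphorylates Smad1, Smad5 and Smad9, which enter the nucleus with Smad4 and switch on target genes, among which the Id genes are the classic readout. Id proteins bind basic helix-loop-helix transcription factors and keep them off DNA. Follistatin binds activins tightly and some BMPs, and gremlin 1 binds BMP2, BMP4 and BMP7, so both act outside the cell. In skin, BMP signals act in hair follicle formation, in the differentiation of the hair shaft and in the resting of follicle stem cells.

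The induced library is labelled for microRNA-200b, so its mature sequence, from RefSeq with GRCm38.p6, is shown first, 5′ to 3′, with the seed (bases 2 to 8, which pair with target RNAs) in capitals. It lies on the minus strand at chr4:156055685-156055706. The 2 sequences after it are the sites in the members' 3′ untranslated regions that match the seed, read 5′ to 3′ on the transcript strand from GENCODE vM21 on GRCm38, with the 7-base match CAGTATT in capitals.
mmu-miR-200b-3p: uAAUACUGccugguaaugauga
Id2: ccagaaggaccCAGTATTcggttacttaa
Grem1: ccacaaacatgCAGTATTgctaaaaataa
The Id2 window is chr12:25094182-25094210 and the Grem1 window is chr2:113747383-113747411, both on the minus strand. These 2 of 10 members carried a match, beside 2919 of 20856 genes with an annotated 3′ untranslated region (13.996%), so the members hold about the share of all genes. Neither match is followed by an A. A match is a description of the sequence and does not show that the microRNA acts on the RNA.

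On GRCm38, in the GENCODE vM21 annotation, Bmp2 lies at chr2:133552159-133562885 (plus strand), Bmp4 at chr14:46383520-46390669 (minus), Bmp7 at chr2:172868012-172940321 (minus) and Bmpr1a at chr14:34410734-34503341 (minus). Id1 lies at chr2:152736251-152737410 (plus), Id2 at chr12:25093799-25097140 (minus), Id3 at chr4:136143497-136145755 (plus) and Id4 at chr13:48261228-48266026 (plus). Fst lies at chr13:114452290-114458951 (minus) and Grem1 at chr2:113746164-113758646 (minus), so the Id genes stand on separate chromosomes.

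The promoter sequences of the Id genes are shown because the results below turn on them; entries were found in the RefSeq table (GRCm38.p6) for Id2, Id3, Id4, Bmp4, Bmpr1a and Grem1. Each runs from 250 bases before to 50 bases after the start site, on the strand of the gene. Capitals mark GGCGCC, a GC-rich motif that BMP-activated Smads are known to bind; both strands were searched, and the motif reads the same on both. The Id2 promoter is chr12:25096043-25096342 (minus strand), the Id3 promoter is chr4:136143572-136143871 (plus strand) and the Id4 promoter is chr13:48260866-48261165 (plus strand).
Id2: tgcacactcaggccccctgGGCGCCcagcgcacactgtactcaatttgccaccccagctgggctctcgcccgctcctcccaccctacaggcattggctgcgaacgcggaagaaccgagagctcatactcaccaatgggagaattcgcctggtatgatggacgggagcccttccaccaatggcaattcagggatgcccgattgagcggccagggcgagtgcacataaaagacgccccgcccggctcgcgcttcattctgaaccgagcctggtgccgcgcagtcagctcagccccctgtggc
Id3: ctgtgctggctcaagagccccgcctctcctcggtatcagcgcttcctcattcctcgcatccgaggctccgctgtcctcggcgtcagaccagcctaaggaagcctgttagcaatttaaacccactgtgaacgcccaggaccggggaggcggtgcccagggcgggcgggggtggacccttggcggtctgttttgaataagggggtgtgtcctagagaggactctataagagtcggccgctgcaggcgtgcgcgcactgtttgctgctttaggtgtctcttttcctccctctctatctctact
Id4: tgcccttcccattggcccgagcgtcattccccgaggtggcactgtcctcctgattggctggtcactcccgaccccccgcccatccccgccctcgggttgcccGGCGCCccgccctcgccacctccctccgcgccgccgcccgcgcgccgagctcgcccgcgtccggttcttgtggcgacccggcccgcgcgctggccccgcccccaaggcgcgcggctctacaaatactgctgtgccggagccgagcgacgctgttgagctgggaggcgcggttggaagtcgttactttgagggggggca
GGCGCC was found in 4 of the 6 member promoters (Bmpr1a, Grem1, Id2 and Id4) and in 3898 of 32851 promoters of the same length (11.9%). The GC content of these windows was high, 63.3% in Id2, 60.0% in Id3 and 73.3% in Id4, and a GC-rich motif is met more often in such sequence. The Smad box CAGAC, searched on both strands, occurred 2 times in the Id3 window and 2 times in the Grem1 window, and 49.6% of all promoters held it. The absence of a motif says only that these letters are not in the window.

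Cell classes were rebuilt from marker lists and are meant as "-like" throughout. The members and the other pathway genes were kept out of the clustering. The epithelial clusters held 3964 control and 4119 induced cells. Total UMIs were 100409201 and 119705137, and the median per kept cell was 14602 and 17885. Sebaceous cells numbered 182 and 3. Of 27 epithelial clusters, 17 drew at least 95% of their cells from 1 library, as did 3 of 11 other clusters, so basal epidermis, spinous epidermis and outer root sheath are held mostly by different clusters in the 2 libraries, while granular epidermis, hair matrix and upper follicle share theirs. In the first 3 classes a difference between the libraries, in genotype, animal or handling, cannot be told apart from a difference between those clusters. Gm13648, a transcript that overlaps the Mir200b locus, stood at 2.22 CPM (UMIs scaled to equal totals of all genes) in control epithelial cells (172 UMIs), at 529 CPM in induced epithelial cells (52247 UMIs), and at 0 and 26.2 CPM in fibroblasts. The libraries shared 8 barcode sequences among kept cells. The defining markers were present in every named class: in the class with the weakest contrast, the outer root sheath, the 10 markers summed to 5729 and 6525 CPM against 3410 and 5451 CPM in the other cells of the same library. The same markers gave the class names, so higher sums follow from the naming and are no separate support for it.

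Levels below, given with the control library first and the induced library second, are CPM of UMIs summed over the cells of a class, with exact Poisson 95% intervals that cover counting error only. Since a molecule is counted once at its 3′ end, the level is not divided by gene length, and levels are compared between classes and libraries for 1 gene at a time. The heat map of levels by class shows all of them.

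**Figure D1:**
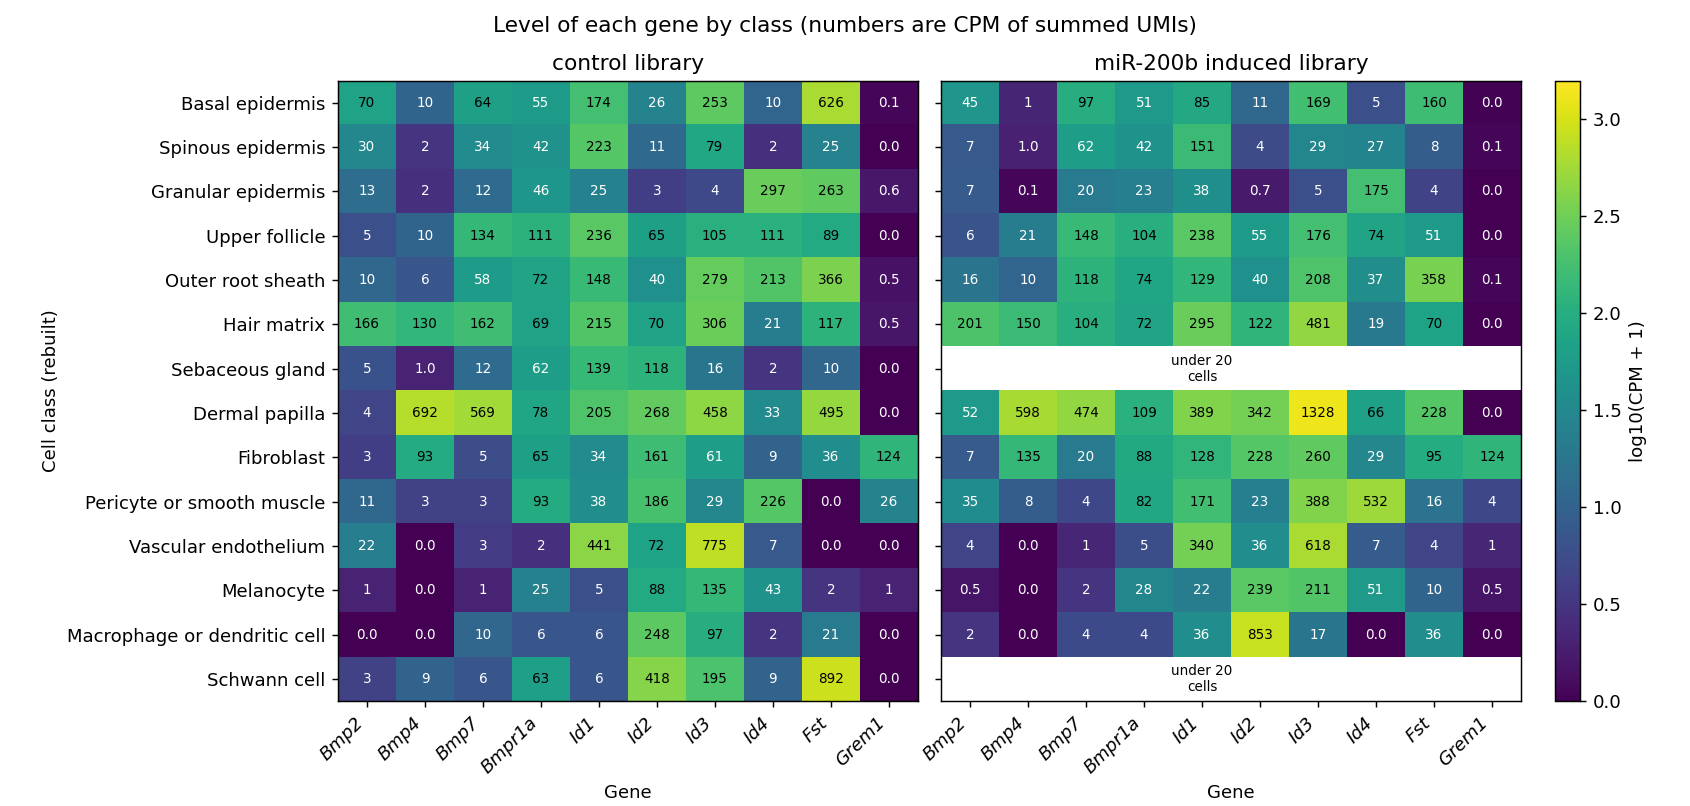
Level of the 10 genes (columns) in each rebuilt cell class (rows) of the control library (left) and the induced library (right), as CPM printed in each cell, with colour on a log10 scale of CPM plus 1. Bmp4 and Bmp7 peak in the dermal papilla row, Grem1 in the fibroblast row and Id3 in the endothelium and dermal papilla rows of both libraries; sebaceous and Schwann cells of the induced library numbered under 20 and are left blank.

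The ligand genes had separate sources. Bmp4, a ligand made by mesenchyme at sites of follicle growth, was highest in the dermal papilla, the cluster of mesenchymal cells at the base of the follicle, at 692 CPM (interval 596 to 799, 186 UMIs in 43 control cells) and 598 CPM (498 to 712, 126 UMIs in 86 induced cells). Cells of the hair matrix class, named for the epithelium next to the papilla, followed with 130 and 150 CPM, and fibroblasts with 93.3 and 135 CPM. Among control cells these 3 intervals did not overlap, while in the induced library those of hair matrix and fibroblasts did. All other classes of both libraries lay at or under 21.1 CPM, and endothelium, melanocytes and macrophages held 0 Bmp4 UMIs. When cells were thinned to a common depth of 2000 UMIs, 72.1% of the 43 control papilla cells and 63.2% of 38 induced papilla cells had a Bmp4 UMI; the other induced papilla cells, of 86 in all, were too shallow for this depth. Macrophages, which are not known for it, had 0 of 27 and 0 of 26 such cells, where 3 cells, the floor used for a count of 0, would be 11.1% and 11.5%. The papilla cells were shallow, with medians of 5844 and 1765 UMIs, against 17000 and 18869 in macrophages.

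Bmp7, which was also highest in the dermal papilla (569 and 474 CPM), reached further into the epithelium than Bmp4. Control hair matrix cells had 162 CPM and upper follicle cells 134 CPM, with overlapping intervals, and basal epidermis (64.1 CPM) and outer root sheath (57.7 CPM), the outer layer of the follicle, came next, again with overlap. Spinous cells, which have left the basal layer, had 34.2 CPM and granular cells, which build the skin barrier, 12.3 CPM. The order differed in the induced library, where the upper follicle (148 CPM) stood above outer root sheath (118 CPM), hair matrix (104 CPM) and basal epidermis (97.0 CPM), with the hair matrix interval overlapping both of its neighbours. Fibroblasts had 4.65 and 19.5 CPM, from 24 and 35 UMIs, of which 41.7% of the control UMIs lay in 1 cell.

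Bmp2 was highest in hair matrix cells, at 166 CPM (147 to 185) and 201 CPM (174 to 230), although 46.6% of the induced UMIs there came from 1 cell. Basal epidermis had 69.7 and 45.3 CPM. Within the control basal class, cluster E2 had 97.9 CPM, the dividing cluster E26 77.5 CPM and E4 33.0 CPM, and within the induced one E18 had 76.5 CPM, E12 53.2 CPM and E0 36.8 CPM, so the clusters of 1 library varied more than the libraries did. In spinous cells Bmp2 was 29.5 and 6.92 CPM. Outer root sheath (10.4 and 16.2 CPM), upper follicle (5.13 and 5.72 CPM) and fibroblasts (2.90 and 7.26 CPM) were low. The sum of the 3 ligands was 1265 and 1124 CPM in the dermal papilla, 458 and 455 CPM in hair matrix, and 144 and 143 CPM in basal epidermis, so these sums differed little between the libraries, while in the outer root sheath the sum was 74.4 and 144 CPM.

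Bmpr1a, the receptor, was spread evenly over epithelial and mesenchymal classes. In the control library the 11 highest classes ran from 111 CPM in the upper follicle to 41.7 CPM in spinous epidermis, and each had an interval that overlapped that of its neighbour in the order. Induced values were 104 CPM in the upper follicle, 109 CPM in the dermal papilla, 74.2 CPM in the outer root sheath, 51.4 CPM in basal epidermis and 41.9 CPM in spinous epidermis. In granular epidermis, by contrast, Bmpr1a was 46.3 and 22.9 CPM, a log2 ratio of −1.02 (−1.41 to −0.61), with 24 control cells. Melanocytes were lower (24.6 and 28.2 CPM). Endothelium stood at 1.70 and 4.94 CPM, from 2 and 4 UMIs, and macrophages at 6.16 and 4.18 CPM, from 3 and 2 UMIs. Endothelial cells, which use the related receptor gene Acvrl1, thus had almost none of this receptor's RNA, while they held the highest Id1 and Id3 levels of the control library.

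The antagonist genes were expressed in different compartments. Grem1 was a fibroblast transcript, with 124 CPM (114 to 134, 639 UMIs) in control fibroblasts and 124 CPM (108 to 141, 222 UMIs) in induced ones. It was 0.245 and 0.101 CPM over all epithelial cells, from 19 and 10 UMIs, and 0 UMIs were found in the dermal papilla of either library, where 3 UMIs would be 11.2 and 14.2 CPM. The equal fibroblast sums hid a mixture: cluster D5, which holds fibroblasts of both libraries, had 96.3 and 181 CPM, while D17, with 204 control and 6 induced cells, had 158 CPM and D28, with 3 control and 77 induced cells, had 25.6 CPM. Pericytes and smooth muscle cells had 25.7 CPM in the control library, and all 24 of those UMIs lay in cluster D32 (101 CPM in 37 cells), led by smooth muscle genes such as Acta2 and Myl9.

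Fst was mainly a transcript of Schwann cells, dermal papilla and parts of the epithelium. Its control levels were 892 CPM in Schwann cells (792 to 1002, 284 UMIs in 31 cells), 626 CPM in basal epidermis (614 to 637), 495 CPM in the dermal papilla, 366 CPM in the outer root sheath and 263 CPM in granular cells, and none of these intervals overlapped its neighbour's. Hair matrix (117 CPM) and upper follicle (88.7 CPM) were lower, spinous cells had 25.4 CPM and sebaceous cells 10.5 CPM. Endothelium and pericytes of the control library held 0 Fst UMIs. Macrophages had 20.5 and 35.6 CPM, but 90.0% and 94.1% of those 10 and 17 UMIs lay in 1 cell of each library, and after thinning 0 of 27 and 0 of 26 macrophages had one.

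Within the epithelium Fst differed widely between clusters. Among control clusters it was 1312 CPM in E25, 1291 CPM in E4, 1003 CPM in E1 and 987 CPM in E13, followed by 609 CPM in E10, 586 CPM in E7 and 454 CPM in E5, but 212 CPM in the basal cluster E2. Among induced clusters it was 834 CPM in the 21 cells of E7, 805 CPM in E3 and 559 CPM in E13, while the basal clusters had 86.0 CPM (E0), 276 CPM (E12) and 333 CPM (E18). E4, E1 and E13 held 60.6% of the control epithelial Fst UMIs in 27.6% of the cells, and E3 held 36.9% of the induced ones in 11.6% of the cells. E4 (442 control and 6 induced cells) and E3 (1 control and 477 induced cells) were both led by Fst and Pthlh, the gene of parathyroid hormone-related protein. E4 met the naming rule as basal epidermis and E3 as outer root sheath, so class values of Fst for these 2 classes depend on that naming. E1, led by Aldh3a1, Igfbp4 and Pparg, stayed unnamed and held 478 control but 18 induced cells.

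**Figure D2:**
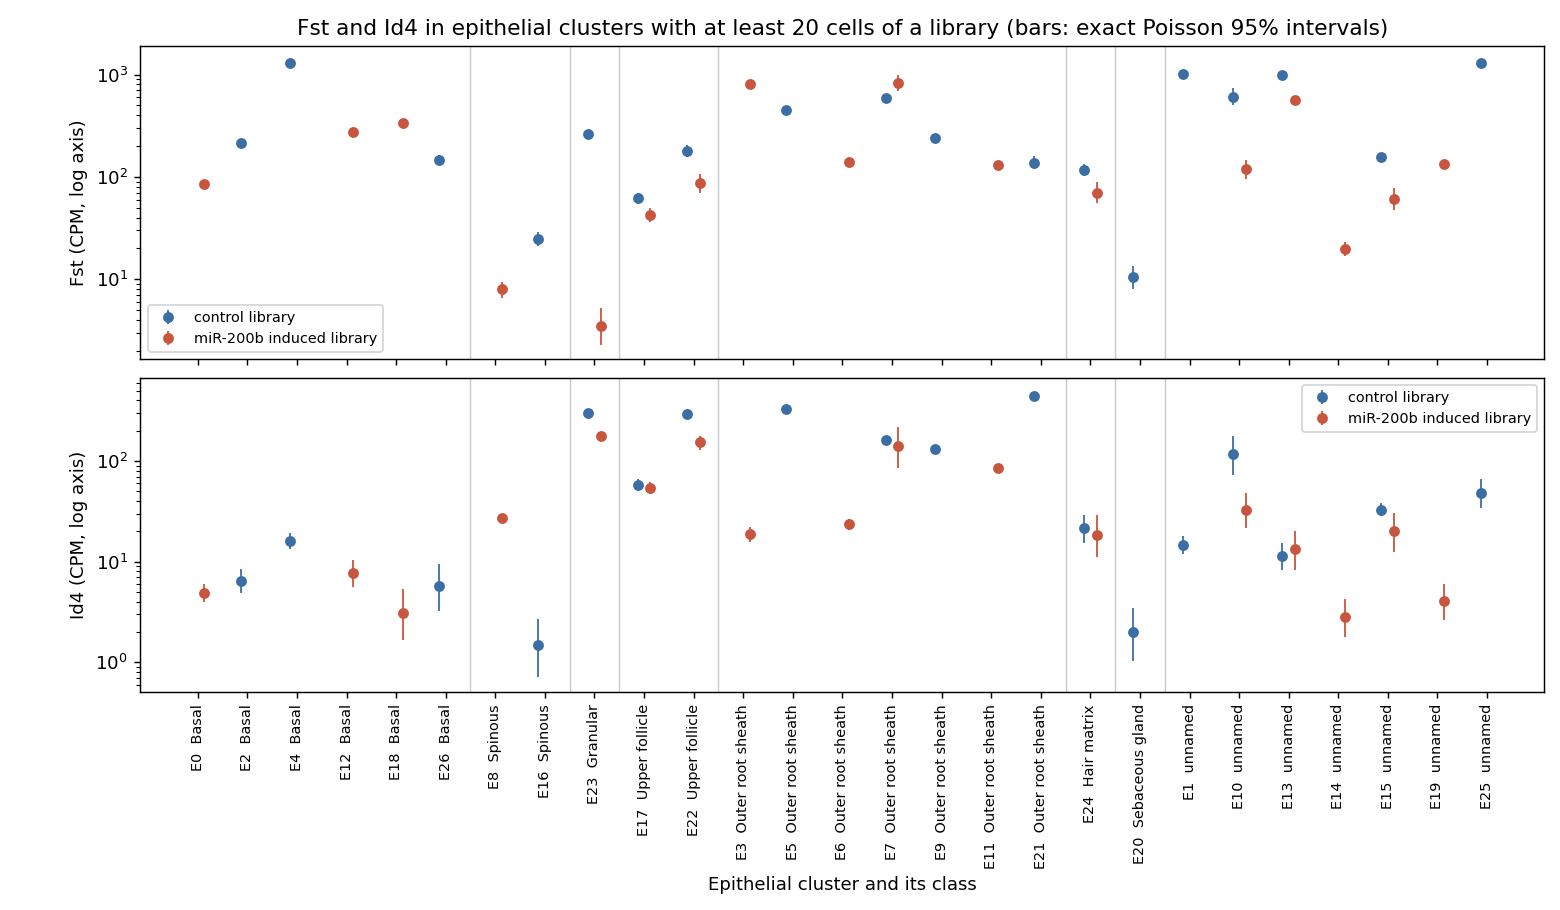
Fst (top) and Id4 (bottom) in CPM on a log axis for each epithelial cluster with at least 20 cells of a library, grouped by class along the x axis; blue points are the control library, red points the induced library, and bars are exact Poisson 95% intervals. Fst is at 987 to 1312 CPM in the control clusters E1, E4, E13 and E25, and in the outer root sheath Id4 is 131 to 446 CPM in the control clusters and 18.6 to 84.9 CPM in the induced clusters E3, E6 and E11, with the 21 induced cells of E7 at 140 CPM.

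The 4 Id genes, which are often treated as 1 readout of BMP signalling, had different patterns over the classes. Id1 was highest in endothelium in the control library (441 CPM, interval 404 to 481), followed by the upper follicle (236 CPM), spinous epidermis (223 CPM), hair matrix (215 CPM) and dermal papilla (205 CPM), whose neighbouring intervals overlapped. Basal epidermis had 174 CPM and the outer root sheath 148 CPM. Fibroblasts (34.1 CPM) and pericytes (37.5 CPM) were low in the control library. In the induced library endothelium had 340 CPM, the dermal papilla 389 CPM and hair matrix 295 CPM, and their neighbouring intervals overlapped.

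Id3 shared the endothelial maximum of Id1 in the control library (775 CPM, interval 726 to 827) and was next highest in the dermal papilla (458 CPM) and hair matrix (306 CPM). It differed from Id1 in the suprabasal layers, where it was 79.2 CPM in spinous cells and 4.11 CPM in granular cells, and in melanocytes (135 CPM). In the induced library the dermal papilla was highest at 1328 CPM (1177 to 1493, 280 UMIs), above endothelium at 618 CPM. The basal cluster E18, led by stress genes such as Nfkbia and Atf3, had 535 CPM of Id3, against 117 CPM in E0 and 79.9 CPM in E12 of the same library.

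Id2 was a transcript of mesenchymal, immune and glial cells. In the control library it was 418 CPM in Schwann cells, 268 CPM in the dermal papilla, 248 CPM in macrophages, 186 CPM in pericytes and smooth muscle, and 161 CPM in fibroblasts, while epithelial classes ran from 118 CPM in sebaceous cells down to 2.93 CPM in granular cells. Along the epidermal layers its level was lower at each step, with 26.1 CPM in basal, 11.3 CPM in spinous and 2.93 CPM in granular cells of the control library and 11.2, 4.42 and 0.702 CPM in the same layers after induction. In the induced library macrophages were highest, at 853 CPM (772 to 940, 408 UMIs in 26 cells). The pericyte value of the control library came from D32, at 722 CPM; the pericyte cluster D27 had 4.31 and 4.08 CPM.

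Id4 had few high classes. Control levels were 297 CPM in granular epidermis, 226 CPM in pericytes and smooth muscle, 213 CPM in the outer root sheath and 111 CPM in the upper follicle, and at most 43.1 CPM in every other class. In the control epidermis it was 10.1 CPM in basal, 1.75 CPM in spinous and 297 CPM in granular cells, the last from 24 cells, so unlike Id2 it was higher in granular than in spinous cells. In the induced library it was 5.12, 27.1 and 175 CPM in these layers, with 123 granular cells. The pericyte cluster D27 had 300 and 542 CPM, and the smooth muscle cluster D32 8.44 CPM from 2 UMIs.

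Over 20 points, each a class in 1 library with at least 50 cells, log2 levels of Id1 and Id3 correlated at Pearson r = 0.50 and those of Id1 and Id2 at −0.06, and the highest value for any pair of members was 0.75, for Bmp7 and Fst. These points share libraries, depth and class structure, so the values describe the 20 points only. At the level of single cells thinned to 2000 UMIs, 33.1% of the 803 control epithelial cells with an Id1 UMI also had an Id3 UMI (29.9% to 36.5%), against 19.0% of the others. In the induced library the shares were 27.9% of 680 cells and 18.9%. Within the upper follicle the shares were 23.1% against 3.73% (control) and 35.3% against 11.03% (induced). Other classes had less contrast, with overlapping intervals. Among control cells the shares were 38.9% against 31.9% in hair matrix, 14.6% against 11.5% in spinous epidermis and 66.7% against 60.5% in endothelium. The upper follicle class pools clusters E17 and E22, which differ in both genes, and the part of that mixture in its shares was not tested.

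The first comparison between the libraries is over all epithelial cells, which does not depend on the class names. Fst, Id4 and Id2 were lower in the induced library by about 2-fold or more, Id1 and Id3 were lower by less, Bmp7 was higher, and Bmpr1a and Bmp2 stayed close to equal. Fst was 425 CPM (420 to 429) and 159 CPM (156 to 161), a log2 ratio of −1.42 (−1.45 to −1.39). Id4 was 76.5 and 32.2 CPM, a log2 ratio of −1.25 (−1.31 to −1.19), and Id2 was 43.5 and 19.4 CPM, a log2 ratio of −1.17 (−1.25 to −1.09). Id3 was 209 and 139 CPM (log2 −0.59), and Id1 was 167 and 120 CPM (log2 −0.47). Bmp7 was 64.5 and 92.6 CPM, a log2 ratio of 0.52 (0.47 to 0.57), Bmpr1a 64.4 and 56.9 CPM (log2 −0.18), and Bmp2 30.8 and 25.3 CPM (log2 −0.29). Bmp4 was low at 10.0 and 5.85 CPM. The median gene stood at −0.10. These intervals cover counting error only and are narrow because many UMIs were counted; they hold no spread between animals.

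A gene was counted as different when its CPM plus 5 differed at least 2-fold, among genes whose mean of the libraries was 10 CPM or more. Of the 8 members that passed this level, 0 were higher and 2 were lower (Fst and Id4), beside 2.21% and 3.99% of the 8141 genes tested. Without the stress-led clusters E7 and E18 the plain log2 ratio of Id4 was −1.10. On the scale of CPM plus 5, which the count uses, Id4 was then under the limit, which left 1 lower member. Id2 lay just under the limit, at −0.99 on the scale of CPM plus 5. The members' median on that scale was −0.51 and that of all genes −0.10. The share of thinned epithelial cells with a UMI was 38.8% and 22.3% for Fst, 13.4% and 5.16% for Id4, 7.76% and 4.28% for Id2, 20.5% and 17.6% for Id1, 21.9% and 20.5% for Id3, and 12.5% and 18.2% for Bmp7. Without thinning the shares were 65.4% and 49.7% for Fst and 36.9% and 24.3% for Id4.

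The Fst ratio depended on which clusters were counted. E1 and E4 were chosen as the control clusters with the most Fst UMIs, so leaving them out had to shrink the difference. Without E1 the epithelial log2 ratio was −1.24, and without E1 and E4 it was −0.77 (−0.80 to −0.73), with 265 and 156 CPM. These values keep E3, whose cells held 5792 of 15678 induced epithelial Fst UMIs (36.9%). Without E1, E4 and E3 the ratio was −1.34 (−1.38 to −1.30), with 265 and 105 CPM. For Id4, of which E1 held 14.6 CPM, the ratio was −1.35 without E1 and −1.48 without E1 and E4. Id3 was −0.36 and Id2 −1.07 without both clusters. Sebaceous cluster E20 (182 and 3 cells) held 21.0% of control epithelial Id2 UMIs and E1 (478 and 18 cells) 14.7%, and without E1 and E20 the Id2 ratio was −0.80 (−0.89 to −0.71). By class, Id2 was 39.8 and 39.7 CPM in the outer root sheath but lower in basal (log2 −1.21) and spinous epidermis (log2 −1.35), and in E13, a cluster of both libraries, it was 54.9 and 15.7 CPM (log2 −1.80). Neither class value was called: basal Id2 was −0.94 on the scale of CPM plus 5, and spinous Id2 did not reach a mean of 10 CPM. The removals of clusters were chosen after the data had been seen. A set of 12 immediate early genes (such as Fos, Jun, Egr1 and Atf3, which respond within minutes to stress, including that of dissociation) summed to 8571 CPM in control and 6193 CPM in induced epithelial cells, and their part in the Id and Fst values was not tested.

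By layer, Fst in basal epidermis was 626 and 160 CPM, a log2 ratio of −1.97 (−2.02 to −1.92), and 48.5% and 24.5% of thinned basal cells had an Fst UMI. The control class was made of E2, E4 and E26, and the induced class of E0, E12 and E18. Without E4 the ratio was −0.36, under 2-fold, and Bmp7, at 1.26, was past 2-fold instead, so E4 decides the size of the basal Fst difference. Taking basal epidermis and outer root sheath together, which puts E4 and E3 in 1 pool, gave 492 and 246 CPM and a log2 ratio of −1.001 (−1.034 to −0.969). Of the 7 basal members that passed the level, 0 were higher and 1, Fst, was lower, beside 1.98% and 5.05% of genes. Id1 was 174 and 85.1 CPM (log2 −1.03), Id2 26.1 and 11.2 CPM (log2 −1.21), Id3 253 and 169 CPM (log2 −0.58), and Bmp7 64.1 and 97.0 CPM (log2 0.60). Over the alternatives Id3 ran from −1.22 to −0.056, Id2 from −1.63 to −0.51 and Id1 from −1.35 to −0.77, and the number of lower members from 0 to 4. Immediate early genes summed to 10515 and 5529 CPM in this class.

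In the outer root sheath Id4 was 213 CPM (206 to 219) in control and 37.1 CPM (34.7 to 39.7) in induced cells, a log2 ratio of −2.52 (−2.63 to −2.41). The control cells of the class stood at 330.0 CPM in E5, 160.4 CPM in E7, 131 CPM in E9 and 446 CPM in E21, all above the clusters made of induced cells, E3 (18.6 CPM), E6 (23.5 CPM) and E11 (84.9 CPM). The 21 induced cells of the stress-led cluster E7 had 140 CPM (85.6 to 216), inside the control range. Thinned cells with an Id4 UMI made up 32.8% and 7.62%. Fst was 366 and 358 CPM (log2 −0.03), Id3 279 and 208 CPM (log2 −0.42), and Bmp7 57.7 and 118 CPM (log2 1.03, but 0.97 on the scale of CPM plus 5). With doublets kept Fst was −1.61 and Bmp7 0.51, and without the stress-led clusters E7 and E18 Fst was 0.22. Of the 8 members that passed the level, 0 were higher and 1, Id4, was lower, beside 2.98% and 3.32% of genes. With the basal epidermis pooled in, the Id4 ratio was −2.59.

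In spinous epidermis, cluster E16 in the control and E8 in the induced library, 1 of 7 members was higher and 3 were lower, beside 6.17% and 6.69% of genes. Id4 was 1.75 and 27.1 CPM, a log2 ratio of 3.95 (3.13 to 4.91) that rests on 12 control UMIs and turned to −0.36 when the cells were clustered without centring. Bmp2 (log2 −2.09), Id3 (79.2 and 28.7 CPM, log2 −1.47) and Fst (25.4 and 7.91 CPM, log2 −1.68) were lower. With doublets kept, Id3 (log2 −0.99) and Fst (log2 −0.45) were under 2-fold. Immediate early genes summed to 9285 and 5876 CPM. In granular epidermis, cluster E23 in both libraries, Fst was 263 and 3.51 CPM, from 448 UMIs in 24 control cells, 28.1% of them in 1 cell, and 25 UMIs in 123 induced cells. It was the 1 of 6 granular members past 2-fold, beside 3.8% of genes higher and 6.19% lower. The 11 granular markers themselves summed to 53370 and 17385 CPM, so the control and induced cells of this class differed in its defining genes too.

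**Figure D3:**
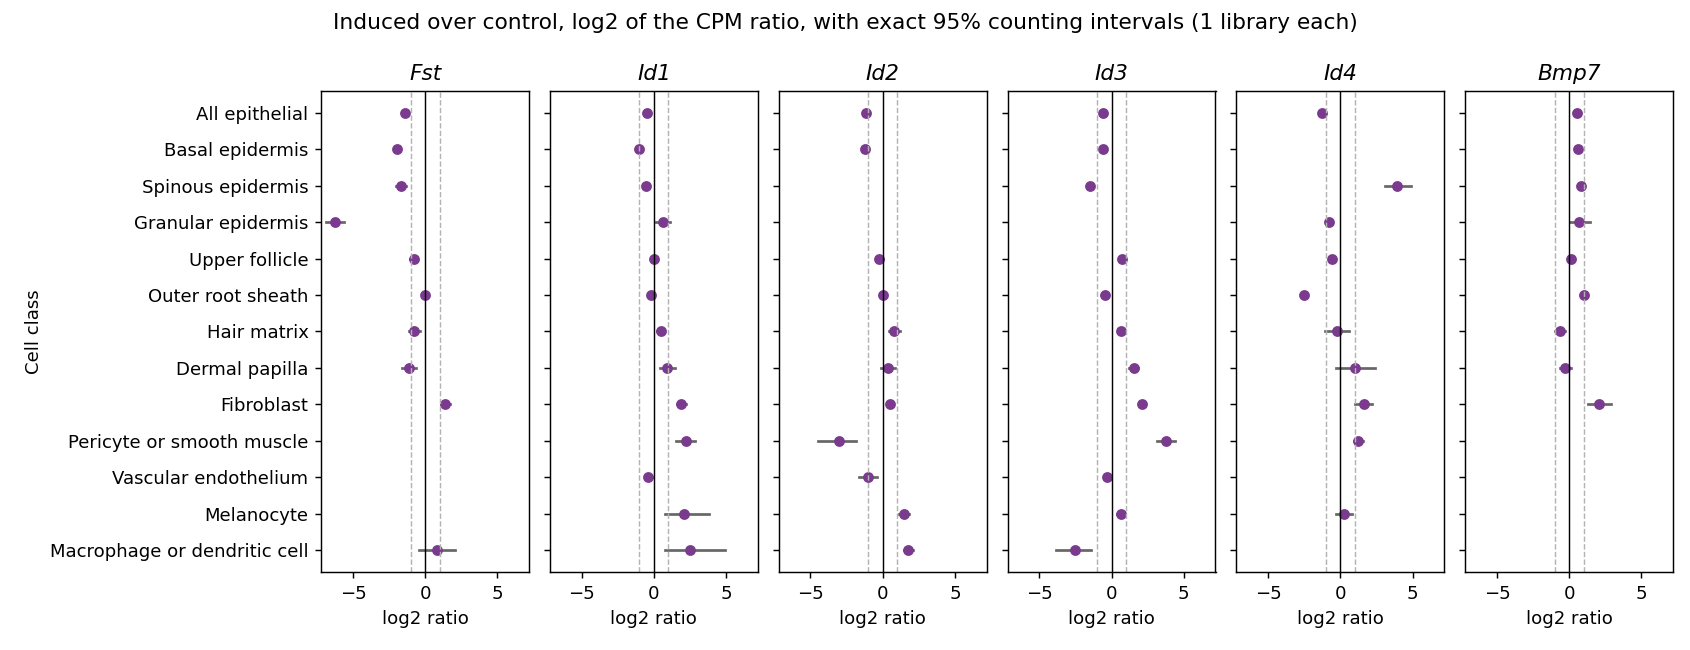
Log2 ratio of induced over control CPM (x axis) for Fst, the 4 Id genes and Bmp7 in all epithelial cells and in each class (y axis), with exact 95% counting intervals and dashed lines at 2-fold; 1 library stands for each group, and genes under a mean of 10 CPM in a class are left out. Fst lies left of 0 in the epidermal layers (−1.97 in basal cells) and right of 0 in fibroblasts (1.39), and Id3 lies right of 0 in pericytes (3.75), fibroblasts (2.08) and dermal papilla (1.54).

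The hair matrix and the upper follicle were held by the same clusters in both libraries (E24, and E17 with E22). The leading genes of E24 included Krt35, from the hair shaft marker list, beside Shh and Hoxc13, and no cell cycle gene. Those of E17 included Krt75 and Tchh, from the companion layer and inner root sheath lists. Both classes may thus hold more than the cells they are named for. In hair matrix 3 Id genes were higher in the induced library: Id3 was 306 and 481 CPM (log2 0.65, interval 0.47 to 0.83), Id2 69.6 and 122 CPM (log2 0.81) and Id1 215 and 295 CPM (log2 0.46), while Fst was 117 and 70.2 CPM (log2 −0.73) and Bmp7 162 and 104 CPM (log2 −0.64). None of the 9 members that passed the level differed 2-fold, beside 5.34% of genes higher and 4.79% lower. With each cell weighted equally, Id2 in hair matrix was 0.13 and Fst −0.027, and with doublets kept Fst was −1.05. In the upper follicle Id3 was 105 and 176 CPM (log2 0.74), Fst 88.7 and 51.1 CPM (log2 −0.80), Bmp4 9.86 and 21.1 CPM (log2 1.10, but −0.045 with the epithelial cells clustered at resolution 2.0), and Id1 236 and 238 CPM (log2 0.01). Here too 0 of 8 members differed 2-fold, beside 2.77% and 2.31% of genes, but over the alternatives Fst ran from −1.58 to −0.80 and Id3 from 0.076 to 1.11, past 2-fold at one end. Immediate early genes were 5040 and 4436 CPM in hair matrix and 5252 and 5802 CPM in the upper follicle.

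Fibroblasts differed mostly towards higher values. In this class 5 of 9 members that passed the level were higher in the induced library (Id1, Id3, Id4, Bmp7 and Fst) and 0 were lower, beside 4.89% and 2.91% of the 8508 genes tested. Id3 was 61.4 CPM (54.8 to 68.5) and 260.2 CPM (237 to 285), a log2 ratio of 2.08 (1.88 to 2.29). Id1 was 34.1 and 128 CPM, a log2 ratio of 1.91 (1.62 to 2.20), and Id4 9.49 and 29.04 CPM (log2 1.61). Fst was 36.2 and 94.9 CPM, a log2 ratio of 1.39 (1.08 to 1.70), and Bmp7 4.65 and 19.5 CPM (log2 2.07, from 24 and 35 UMIs). Id2 (161 and 228 CPM, log2 0.50), Bmp4 (log2 0.53), Bmpr1a (log2 0.43) and Grem1 (log2 0.00) differed less. The members' median was 1.23 and that of all genes 0.02. The thinned shares were 9.58% and 26.3% for Id3, 6.32% and 15.9% for Id1, and 6.70% and 13.9% for Fst.

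These fibroblast values have limits of their own. With doublets kept, Id4 was 0.73 and Fst 0.37, and with a stricter cell filter Bmp7 was 0.68 and Fst 0.50, so each of these 3 genes was under 2-fold in at least 1 setting, while Id1 (1.41 to 2.78) and Id3 (1.88 to 2.43) were above it in all 8. Bmp4 turned to −0.77 with the stricter filter. The control class was D5 (320 cells) and D17 (204 cells), the induced class D5 (201 cells) and D28 (77 cells). Inside D5, 4 of 9 members were higher (Bmp7, Id1, Id3 and Fst) and 0 lower, beside 3.21% and 2.11% of genes: Id3 was 66.4 and 222 CPM (log2 1.74), Id1 50.7 and 109 CPM (log2 1.11) and Fst 33.5 and 119 CPM (log2 1.82). The 12 immediate early genes moved with these members, with sums of 1744 and 7470 CPM in fibroblasts and 2083 and 6247 CPM in D5. The epidermal keratins Krt5, Krt14, Krt10 and Krt1, which fibroblasts do not make, summed to 487 and 1031 CPM in fibroblasts, beside 22301 and 24005 CPM in epithelial cells. Median depth was 9509 and 5938 UMIs. The part of these in the result was not tested.

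The dermal papilla, cluster D25 in both libraries, shared the higher Id3 but not the higher Fst. Id3 was 458 CPM (380 to 546) and 1328 CPM (1177 to 1493), a log2 ratio of 1.54 (1.23 to 1.86), and Id1 was 205 and 389 CPM (log2 0.93), while Fst was 495 and 228 CPM (log2 −1.12, −1.63 to −0.63). Fst was under 2-fold with doublets kept (log2 −0.81), with the stricter filter (log2 −0.72) and without centring (log2 −0.91). Bmp4 (log2 −0.21, −0.55 to 0.12) and Bmp7 (log2 −0.26, −0.64 to 0.11) had intervals that hold 0, so a difference was not detectable at this depth. Bmp2 was 3.72 and 52.2 CPM, from 1 and 11 UMIs, a log2 ratio of 3.81 with an interval from 1.03 to 9.24. In all, 2 of 9 members were higher and 1 lower, beside 12.9% and 12.7% of genes, which makes it a class in which many genes passed 2-fold at low counts. Immediate early genes summed to 6697 and 17736 CPM, and the keratins to 703 and 2334 CPM.

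In pericytes and smooth muscle, 4 of 7 members were higher (Id1, Id3, Id4 and Bmp2) and 2 lower (Id2 and Grem1), beside 9.07% and 12.9% of genes. Id3 was 28.9 CPM (19.1 to 42.1) and 388 CPM (316 to 473), a log2 ratio of 3.75 (3.12 to 4.42), and Id1 was 37.5 and 171 CPM (log2 2.19). Within the pericyte cluster D27, with 52 and 46 cells, Id3 was 35.9 and 338 CPM (log2 3.24), Id1 46.0 and 171 CPM (log2 1.90) and Id4 300 and 542 CPM, and 3 of 5 members were past 2-fold higher (Id1, Id3 and Bmp2) and 0 lower, beside 10.5% and 13.5% of genes. Bmp2 rests on 10 and 9 UMIs there, and its interval (−0.12 to 2.81) holds 0. The lower Id2 (log2 −3.00) and Grem1 (log2 −2.73) came with D32, which held 37 control and 3 induced cells. With the stricter filter Id2 in this class turned to 0.55 and Id4 was 0.88, under 2-fold. Immediate early genes summed to 2978 and 12661 CPM in the class and to 3615 and 12782 CPM in D27, the keratins to 458 and 1088 CPM in the class and to 405 and 1052 CPM in D27. Median depth in the class was 9744 and 5192 UMIs. The part of these in the result was not tested.

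Endothelium had lower Id1, Id2 and Id3 in the induced library, while its immediate early sum was higher there (6107 and 9439 CPM). Id3 was 775 and 618 CPM (log2 −0.33, −0.49 to −0.17), Id1 441 and 340 CPM (log2 −0.38), and Id2 71.6 and 35.8 CPM (log2 −0.997, but −0.29 with each cell weighted equally). Bmp2 was the 1 of 4 members past 2-fold, lower at 22.1 and 3.71 CPM, beside 4.89% of genes higher and 7.68% lower, and 65.4% of its 26 control UMIs lay in 1 cell; with doublets kept it was −0.34. In melanocytes, 2 of 5 members were higher (Id1 and Id2) and 0 lower, beside 2.33% and 2.43% of genes: Id2 was 88.2 and 239 CPM (log2 1.44, 1.11 to 1.79), and Id1 5.13 and 22.0 CPM, of which 46.5% of the induced UMIs lay in 1 cell. Id1 was under 2-fold with doublets kept (log2 0.40) and with each cell weighted equally (log2 0.85). Keratins summed to 402 and 794 CPM in melanocytes and immediate early genes to 2418 and 3198 CPM. In macrophages, with 29 and 26 cells, Id2 was 248 and 853 CPM (log2 1.78, 1.48 to 2.08). Id1 was also higher there and Id3 lower, from 3 and 47 control UMIs and 17 and 8 induced UMIs, which makes 2 of 4 members higher and 1 lower, beside 5.34% and 5.29% of genes. Of the Id3 UMIs, 68.1% (control) and 75.0% (induced) lay in 1 cell of each library. In macrophages the keratins summed to 926 and 1591 CPM and immediate early genes to 8242 and 5577 CPM. The part of these sums in the Id values of both classes was not tested.

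**Figure D4:**
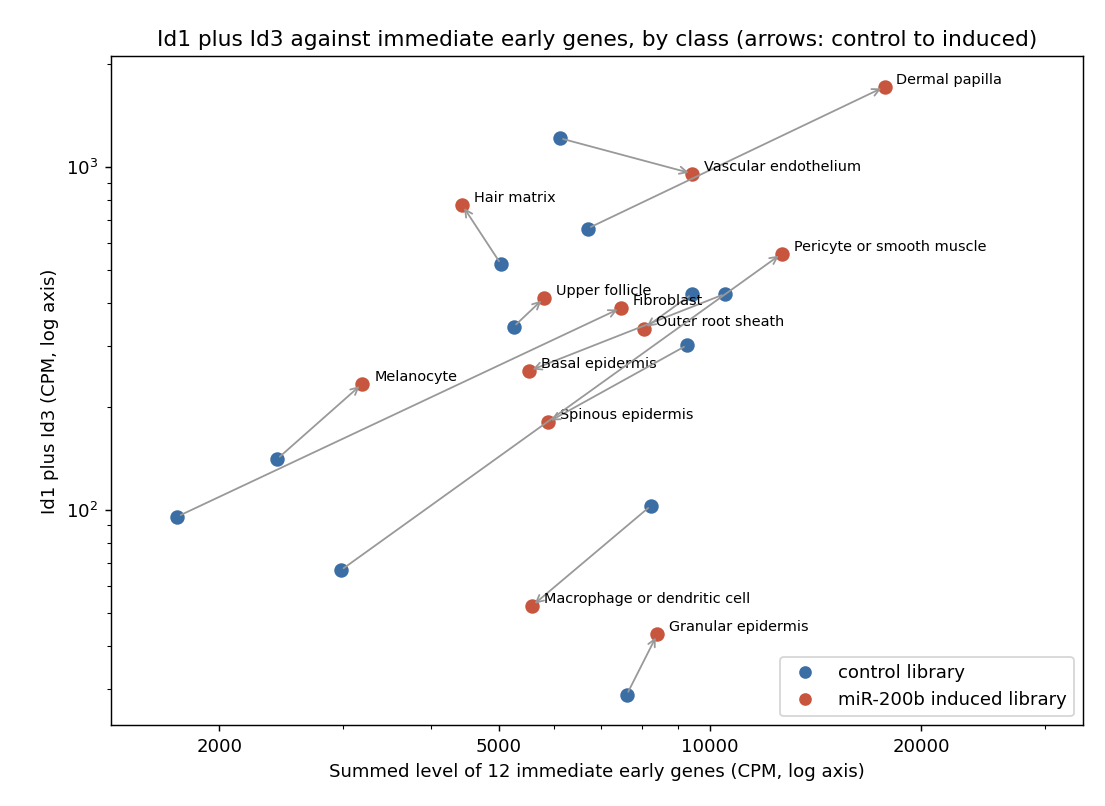
Summed CPM of Id1 and Id3 against the summed CPM of 12 immediate early genes, both on log axes, with a blue point for the control library, a red point for the induced library and an arrow from the first to the second for each class. Fibroblasts, pericytes and dermal papilla run up and to the right, basal and spinous epidermis down and to the left, endothelium to the right and down, and hair matrix to the left and up.

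There were 11 clusters that held at least 40 cells of each library. Inside them the cells of both libraries were grouped together. Id3 was past 2-fold in 4 of the 11, in each case higher in the induced library: D27 (log2 3.24), E22 in the upper follicle (log2 1.85, 15.7 and 56.6 CPM from 18 and 57 UMIs), D5 (log2 1.74) and D25 (log2 1.54). In E22, 4.76% of genes were past 2-fold higher. Of the 11 Id3 intervals, 7 lay above 0, 3 lay under 0 and 1 held 0. Those under 0 were E13 (log2 −0.63, −0.80 to −0.47), E10 (log2 −0.50) and D24 (log2 −0.33), each less than 2-fold. In the other epithelial clusters of the set, genes past 2-fold made up 10.4% (higher) in E10, 4.0% (higher) and 3.09% (lower) in E13, 5.01% (higher) in E15, and 3.03% (higher) and 2.75% (lower) in E17. The member called lower in E13 was Id2, and E17 had none. In E10, Id4 was called lower beside Fst, at 117 and 32.8 CPM (log2 −1.83, from 22 and 26 UMIs). Fst was past 2-fold and lower in 4 of the 8 clusters where it passed the level: E10 (log2 −2.36), E15 (log2 −1.35), D25 (log2 −1.12) and E22 (log2 −1.06), beside 9.93%, 4.77%, 12.7% and 4.32% of genes, and it was higher in 1, D5. In E13, a cluster of dividing cells with 175 control and 77 induced cells, it was 987 and 559 CPM (log2 −0.82, −0.92 to −0.72). E10 is a cluster of shallow cells, with a median depth of 0.0944 times that of its library, and 44.3% of its 115 control Fst UMIs lay in 1 of 52 cells. Bmpr1a was past 2-fold in 0 of the 10 clusters where it passed the level.

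The other genes of the pathway, a list of 46 ligands, activin subunits, receptors, Smads, antagonists and response genes, was counted in the same sets. Over all epithelial cells 20 passed the level, 1 was higher and 1 lower, beside 2.21% and 3.99% of all genes, which is near the background. Htra1, a secreted protease that also restrains BMP and related signals, was 75.9 and 167 CPM (log2 1.14), and Fstl1, a follistatin-like secreted protein, was 22.2 and 8.58 CPM (log2 −1.37). The list's median was −0.29. Of the 7 other receptor genes and 4 Smad genes that passed, 0 were past 2-fold. In fibroblasts 27 passed, 1 was higher and 0 lower, beside 4.89% and 2.91% of all genes: Nog, which encodes the BMP antagonist noggin, was 8.32 and 40.2 CPM (log2 2.27), and the list's median was 0.18.

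In the hair matrix 6 of 22 pathway genes were higher and 3 lower, beside 5.34% and 4.79% of all genes. These 9 genes were named after their values were seen. The higher ones were the BMP response genes Msx1 (35.6 and 309 CPM, log2 3.12) and Msx2 (65.8 and 268 CPM, log2 2.03), the decoy receptor gene Bambi (115 and 310 CPM, log2 1.44), the inhibitory Smad gene Smad7 (71.3 and 152 CPM, log2 1.09), the antagonist gene Sostdc1 (24.7 and 60.5 CPM) and the ligand gene Bmp8a (6.58 and 18.5 CPM). The lower ones were the secreted regulators Twsg1 (41.7 and 17.6 CPM), Fstl1 (37.3 and 11.7 CPM) and Fstl3 (19.2 and 6.83 CPM).

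In the upper follicle 3 of 22 pathway genes were higher and 3 lower, beside 2.77% and 2.31% of all genes. The genes named in this and the next paragraph were also picked after their values were seen. Msx1 (1.77 and 25.9 CPM), Msx2 (2.17 and 33.6 CPM) and Htra1 (9.27 and 48.8 CPM) were higher, while Inhba (139 and 61.6 CPM), Rgma (134 and 63.6 CPM) and Fstl1 (26.8 and 6.51 CPM) were lower. In basal epidermis 0 of 18 were higher and 2 were lower, beside 1.98% and 5.05% of all genes: Nbl1 (log2 −1.17), a BMP antagonist gene, and Hes1 (log2 −1.20), better known as a Notch target.

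In the dermal papilla 7 of 30 were higher and 3 lower, beside 12.9% and 12.7% of all genes, from few UMIs. The higher ones included Bambi (52.1 and 247 CPM, log2 2.24), Nbl1 (70.7 and 166 CPM), Nog (48.4 and 114 CPM), Acvr2b (29.8 and 90.1 CPM), and, with at most 6 UMIs in either library, Inhbb and Msx1. The lower ones were Sostdc1 (673 and 61.7 CPM, log2 −3.45), Gdf11 (37.2 and 14.2 CPM, from 10 and 3 UMIs) and Msx2 (26.0 and 9.49 CPM, from 7 and 2 UMIs). For the other classes, counts higher and lower follow, with the shares of all genes in brackets. Granular epidermis had 0 and 4 of 12 (3.8% and 6.19%), and spinous epidermis 1 and 2 of 14 (6.17% and 6.69%). Outer root sheath had 1 and 1 of 20 (2.98% and 3.32%), and pericytes 3 and 1 of 23 (9.07% and 12.9%). Endothelium had 2 and 2 of 22 (4.89% and 7.68%), melanocytes 1 and 0 of 14 (2.33% and 2.43%) and macrophages 0 and 0 of 9 (5.34% and 5.29%).

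For each member the genes whose log2 levels ran closest to it over the same 20 points were listed, by Pearson r and as a description. Grem1 ran with Nnmt (0.99) and Rarres2 (0.99), Bmp4 with Wif1 (0.93) and Rasl11b (0.88), Bmp7 with Fbxl19 (0.91) and Pak1 (0.90), and Bmp2 with Lrp4 (0.88) and Fzd10 (0.88). Fst ran with Wnt6 (0.88) and Fgfr2 (0.87), and Bmpr1a with 2700062C07Rik (0.85) and Pard3 (0.85). Among the Id genes, Id1 ran with Fosl2 (0.85) and Midn (0.80), Id2 with Cisd2 (0.91) and Rab11fip2 (0.91), Id3 with Zfp277 (0.90) and Rara (0.90), and Id4 with Paip2b (0.73) and Ppm1d (0.69). Genes confined to 1 class give high values by that alone, as Grem1 does in fibroblasts.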

How the data were processed

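The 2 libraries (10x Genomics 3′ v3.1, 1 per group) were analysed as deposited. The authors deposited raw UMI counts for each gene in each barcode. Per the file headers Cell Ranger 6.0.0 made them, and mm10 is named in the submitters' processing notes; cell-calling settings are not given in the sources used here. Barcodes were filtered as stated, and the 7% with the highest scrublet scores per library were removed, since the automatic threshold marked 3 cells and 1 cell. After scaling to 10000 UMIs, 2000 variable genes, centred within each library, gave 30 principal components, 15 neighbours and Leiden clusters at resolution 1.0. Members, pathway genes, cell cycle, sex-linked, mitochondrial, ribosomal and haemoglobin genes were left out. Clusters with over 3000 CPM of keratins were called epithelial. A class name, from 24 lists, needed 3 markers detected in 25% of cells and raised 1.5-fold over other cells of that library (20 CPM added), with a mean log2 fold above 0.25; these thresholds were chosen with the data in view.

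Summed UMIs gave CPM with exact Poisson intervals, ratios with exact conditional binomial intervals, and shares with Clopper-Pearson intervals, all 95% and of counting error only. Shares were taken after thinning to 2000 UMIs, which left out shallower cells (1.62% of control and 7.72% of induced cells). With 1 library per group no p-value is given. The members and lists were chosen with earlier results of these data known. All 10 members are named. Of the other pathway genes, up to 3 with the largest rise and fall past 2-fold in epithelial cells and fibroblasts, and the 2 genes most like each member, are named by rule. Pathway genes of hair matrix, upper follicle, basal epidermis and dermal papilla were named after their values had been seen. Only the ratio, its interval and the 2-fold call were tested on simulated Poisson counts. Filtering, doublet removal, clustering, class naming and thinning were not tested in that way. The steps used scanpy 1.11.5 and leidenalg 0.10.2 under Python 3.11.15, with scipy 1.17.1, numpy 2.4.6, matplotlib 3.10.9 and pandas 2.3.3.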

Additional observations from a re-analysis of the deposited data

Results flagged for a closer look

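In 5 members the induced library was past 2-fold higher in one class and past 2-fold lower in another, and none of these differences between classes was tested. Fst was higher in induced fibroblasts (log2 1.39, but 0.37 with doublets kept and 0.50 with the stricter filter) and lower in induced basal epidermis (log2 −1.97, but −0.36 without cluster E4). Id3 was higher in pericytes and smooth muscle (log2 3.75) and lower in spinous epidermis (log2 −1.47, but −0.99 with doublets kept). Id4 was higher in spinous epidermis (log2 3.95, from 12 control UMIs, turning to −0.36 without centring) and lower in the outer root sheath (log2 −2.52). The outer root sheath ratio is mostly between different clusters, and in cluster E7 the 21 induced cells lay inside the range of the control clusters. Id2 was higher in melanocytes (log2 1.44) and lower in pericytes and smooth muscle (log2 −3.00, turning to 0.55 with the stricter filter). Bmp2 was higher in the dermal papilla (log2 3.81, from 1 and 11 UMIs) and lower in endothelium (log2 −2.58, but −0.34 with doublets kept). For each gene these are the highest and the lowest such ratio among the 10 classes compared; granular cells and macrophages, each with under 30 cells of a library, were not among them.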

How the results depend on the processing

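Up to 81 log2 ratios of members were recomputed under 8 alternatives. The numbers that left their counting interval were 13 without centring in the clustering, 32 with doublets kept, 32 with each cell weighted equally, 16 at epithelial resolution 2.0, 20 of 79 with a stricter filter (2000 UMIs, 1000 genes, 10% mitochondrial), 12 without the stress-led clusters E7 and E18, 11 without E1 and E4, and 0 without the shallow cluster E10; the last 3 were added after the data had been seen. The setting without E7 and E18 kept other clusters with high immediate early sums. These include control E21 (18437 CPM) and induced E11 (11772 CPM), both above E18 (10804 CPM). It therefore does not show the ratios without stressed cells. In all 17 ratios changed sign in at least 1 alternative. For 12 of them the counting interval already held 0. The other 5 went past 0, Id2 in the upper follicle to 0.27 with doublets kept, Bmp4 in fibroblasts to −0.77 and Id2 in pericytes to 0.55 with the stricter filter, Id4 in spinous epidermis to −0.36 without centring, and Bmp4 in the upper follicle to −0.045 at resolution 2.0. Their causes were not tested. The number of members higher in fibroblasts was 3 with doublets kept and 3 with the stricter filter. The number lower in epithelial cells was 1 without the stress-led clusters and 1 without E1 and E4, and in basal epidermis that number ran from 0 to 4. Without the stress-led clusters the plain log2 ratio of Id4 was −1.10, but Id4 was under the limit on the scale of CPM plus 5. Fst in the outer root sheath ran from −1.61 to 0.22 and in spinous epidermis from −3.73 to −0.45, Id3 in basal epidermis from −1.22 to −0.06, and Bmp2 in endothelium from −2.58 to −0.34. No paired analysis was possible because each group has 1 library. With 1 library each, animal, handling and genotype cannot be told apart, and classes of under 100 cells limit the precision of the dermal values.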
